A study of Homo sapiens with 4 samples.

Results

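Growth arrest specific 1 (GAS1) and 8 further genes of the Hedgehog pathway were followed in laryngeal squamous cell carcinoma (LSCC) cells with knockdown of SKA3, a subunit of the complex that ties kinetochores to spindle microtubules. The 9 genes (GAS1, CDON, BOC, PTCH1, HHIP, SMO, SUFU, GLI2 and GLI3), of 28729 in the deposited table, were selected on the measured difference of GAS1 between SKA3-KD and NC, which was among the largest rises, and the others because they act with GAS1 in receiving the signal. Values of GAS1 therefore describe why the set was chosen and carry no test here. RNA was sequenced from TU-177, an established LSCC line, in 2 negative control (NC) libraries and 2 SKA3 knockdown (SKA3-KD) libraries. Per the labels, both groups received a lentivirus, with an shRNA against SKA3 or a negative control, and both were kept under puromycin from 48 hours after transduction, so that only resistant cells were harvested. The study also describes other means of silencing SKA3, and the labels were followed here. One line was used, and whether the replicates were separate cultures is not stated. The p-values therefore measure only the spread between these libraries, shared across genes by the fits, and this spread may be technical. Differences that arose during selection and those of the knockdown cannot be told apart.

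Hedgehog ligands (SHH, IHH, DHH) are secreted proteins that bind the receptor PTCH1, aided at the cell surface by the co-receptors GAS1, CDON and BOC. Without ligand, PTCH1 holds down SMO. With ligand, SMO enters the primary cilium and frees the GLI transcription factors from SUFU, after which GLI2 acts mainly as an activator while GLI3 mainly provides the repressor, and PTCH1, HHIP and GLI1 are themselves classical target genes. The pathway is best known for patterning embryonic tissues, and in epithelial tumours its ligands and its GLI factors can be active in the cancer cell or in the stroma around it.

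The bases before the start of GAS1 are shown because the difference of GAS1 chose the set, and a stretch before a start of PTCH1 because it is the only promoter window among the members that held the GLI binding consensus. Both were read from RefSeq windows (GRCh38.p14) that hold 250 bases before and 50 after each start. The bases are 5′ to 3′ on the minus strand, at chr9:86947507-86947756 for GAS1 and at chr9:95509380-95509488 for PTCH1. In the PTCH1 stretch, the GLI consensus GACCACCCA, read here as its reverse complement, stands in capitals, with its first base at position -172 from the start. The GAS1 stretch held no match and is in lower case throughout.
GAS1: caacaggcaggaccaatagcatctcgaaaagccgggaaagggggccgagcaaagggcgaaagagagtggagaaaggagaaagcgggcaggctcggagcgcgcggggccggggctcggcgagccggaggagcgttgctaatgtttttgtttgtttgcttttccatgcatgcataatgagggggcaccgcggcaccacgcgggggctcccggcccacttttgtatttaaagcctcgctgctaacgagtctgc
PTCH1: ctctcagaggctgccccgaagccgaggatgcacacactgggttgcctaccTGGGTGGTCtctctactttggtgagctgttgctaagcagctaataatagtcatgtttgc
On either strand, 83 of 35116 promoter windows (0.236%) held the consensus. Of 16 windows of 8 members, 1 held it, and of 64 windows of 34 other pathway genes, 0 held it. A match is a description of letters and not of binding, and the lack of a match concerns this window only. GLI3 had no window in the table.

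Deposited by the authors as FPKM, the values count fragments scaled to gene length and to library size, so levels of genes can be set beside each other per length. The order of genes by level depends on that length, which may exceed the transcript expressed. The length used was 16591 bases for PTCH1, with 193 and 174 reads in NC, and 2826 bases for GAS1, with 120 and 82. A gene was tested when its mean FPKM over the 4 libraries was at least 1, which left 12645 genes, and the test was limma on log2(FPKM + 1) with Benjamini-Hochberg adjustment and a threshold of 0.05. Differences are mean log2(FPKM + 1) of SKA3-KD minus NC, and this scale understates differences of low genes. Whole reads per gene were recovered from the FPKM steps, with library sizes from 9015056 to 11966130 reads. SKA3 itself was at 9.40 and 9.64 FPKM in NC and at 3.77 and 4.12 FPKM in SKA3-KD, a difference of -1.09 (SE 0.07, adjusted p = 0.00806 by limma). Over all genes tested 12.3% passed the threshold, with 6.16% higher and 6.11% lower in SKA3-KD, and 61.6% had groups that did not overlap, 32.3% with SKA3-KD above NC and 29.2% below. Of 11 squamous markers, 10 were in the table, with summed levels of 195 and 210 FPKM in NC and 168 and 190 FPKM in SKA3-KD, almost all from SFN and KRT17, whereas KRT5, KRT14 and KRT6A were each at 0 in at least 2 libraries. TP63 (0.348 to 0.580 FPKM), CDH1 (0.149 to 0.447 FPKM) and PKP1 (at most 0.0942 FPKM) were also low, and DSC3 and EPCAM averaged 1.24 and 2.85 FPKM. Of 7 fibroblast markers, 6 were in the table and their sum was 15.4 and 15.8 FPKM in NC against 8.86 and 9.56 FPKM in SKA3-KD, mostly through DCN, with COL1A2 at 0 in 3 libraries. COL1A1 (3.22 and 3.99 FPKM in NC, 2.71 and 2.66 FPKM in SKA3-KD) and COL3A1 (0.797 and 0.765 against 0.476 and 0.361 FPKM) were also lower, as was LUM at few reads. The list did not go one way, since PDGFRB was at 2.88 and 2.46 FPKM in NC and at 3.19 and 4.13 FPKM in SKA3-KD. Endothelial markers summed to at most 0.0968 FPKM and immune markers to between 0.798 and 1.38 FPKM. The part of these markers in the results below was not tested, and in bulk RNA fewer cells of a type and less RNA per cell cannot be told apart.

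GAS1 (ENSG00000180447), the lipid-anchored co-receptor, had the largest difference on the log2(FPKM + 1) scale among the members above the filter. Its level was 3.55 and 3.22 FPKM in NC, from 120 and 82 reads, and 9.70 and 10.5 FPKM in SKA3-KD, from 279 and 350 reads. Both knockdown libraries lay above both control libraries, as in 32.3% of all genes tested. The gap between the groups was wider than within either, which comes with choosing a gene for its large rise. The means were 3.38 ± 0.233 FPKM and 10.1 ± 0.567 FPKM (SD, n = 2 each), a ratio of 2.99 and a difference of 1.34 on the log2 scale (SE 0.08). By this difference GAS1 ranked 26 of the 12645 genes tested, and because the rank chose it, no test is given.

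Of the other co-receptors, CDON did not pass the test and BOC was too low to enter it. CDON (ENSG00000064309), an immunoglobulin-family protein of the cell surface, was at 2.29 and 2.16 FPKM in NC and at 2.32 and 1.84 FPKM in SKA3-KD, and the groups overlapped. The difference was -0.07 (SE 0.13, 95% interval -0.40 to 0.26, adjusted p = 0.753 by limma). That interval leaves room for moderate changes either way. BOC (ENSG00000144857), the close relative of CDON, had only 4 and 11 reads in the NC libraries, against 2 and 0 in the SKA3-KD libraries. Its mean FPKM was too low for the test, and the pooled 15 against 2 reads give a rate ratio of 0.127 with an exact 95% interval of 0.0141 to 0.547 that covers counting error only.

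**Figure D1:**
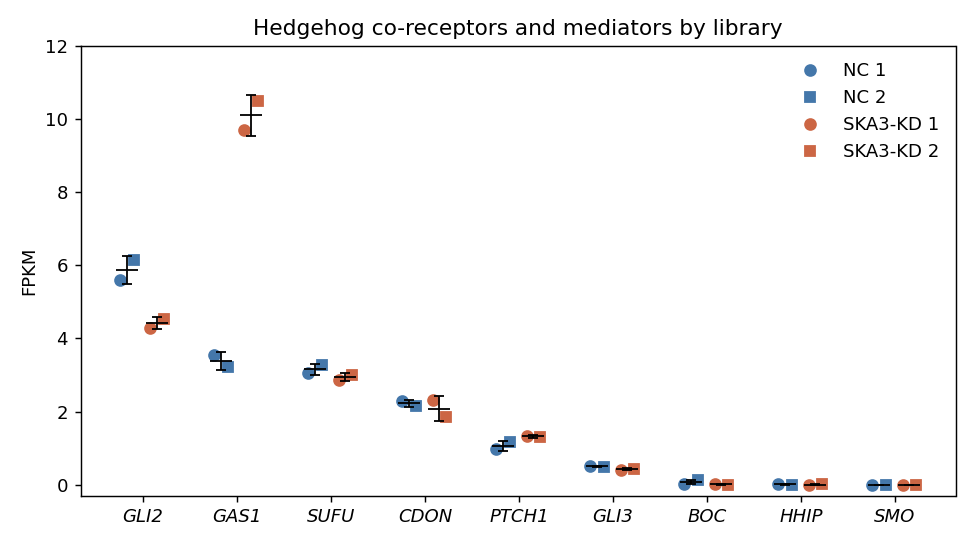
FPKM of the 9 members in each library. Circles and squares are replicates 1 and 2, horizontal lines the group means and bars the SD (n = 2). GAS1 stands at 9.70 and 10.5 FPKM with knockdown, above 3.55 and 3.22 FPKM in the controls, GLI2 lies lower in both SKA3-KD libraries, and BOC, HHIP and SMO lie at or near 0.

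The receptor PTCH1 (ENSG00000185920) was at 0.972 and 1.16 FPKM in NC and at 1.34 and 1.298 FPKM in SKA3-KD. Both SKA3-KD libraries were above both NC libraries, but the difference of 0.17 (SE 0.15, 95% interval -0.22 to 0.55) did not pass the test (adjusted p = 0.498 by limma). With limma voom on the recovered reads the difference was 0.32 (SE 0.13) and did not pass either (adjusted p = 0.0703). The pooled 367 reads in NC and 480 in SKA3-KD give a rate ratio of 1.25 (exact 95% interval 1.09 to 1.43, counting error only). SMO (ENSG00000128602), the transducer that PTCH1 restrains, was listed at 0 in all 4 libraries. A total of 2225 listed genes were at 0 in every library, whereas 12 housekeeping genes were above 0 in each and none of 75 ribosomal protein genes was at 0 throughout. At the length of SMO, 3 reads would be worth between 0.0582 and 0.0772 FPKM, which is the level below which a count of 0 says nothing. HHIP (ENSG00000164161), a membrane protein that binds and traps the ligands, had 2 and 0 reads in NC and 0 and 1 read in SKA3-KD.

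Downstream of SMO, SUFU (ENSG00000107882), which holds the GLI factors in the cytoplasm, was at 3.04 and 3.26 FPKM in NC and at 2.86 and 3.01 FPKM in SKA3-KD. The groups did not overlap, yet the difference of -0.08 (SE 0.09, 95% interval -0.31 to 0.16) was within the error of the fit (adjusted p = 0.617 by limma). GLI2 (ENSG00000074047), the main activator, was at 5.60 and 6.13 FPKM in NC and at 4.30 and 4.53 FPKM in SKA3-KD. The knockdown libraries were both lower, with means of 4.41 ± 0.164 FPKM against 5.87 ± 0.378 FPKM (SD, n = 2 each). The difference of -0.34 (SE 0.08, 95% interval -0.55 to -0.13) just missed the threshold (adjusted p = 0.0571 by limma). GLI2 passed in 3 of 10 alternative settings with all libraries, over an adjusted range of 0.00231 to 0.147. These were limma voom on the recovered reads (-0.40, adjusted p = 0.00445), which passed 26.2% of all genes (13.9% higher and 12.3% lower), voom with a lower filter, and limma on the genes averaging 5 FPKM or more, which passed 25.7% (13.6% higher and 12.1% lower). The voom fit with the lower filter was not planned and passed 17.5% of its genes (8.98% higher and 8.56% lower). With single libraries left out in turn, the difference of GLI2 ran from -0.40 to -0.29. GLI3 (ENSG00000106571), the main source of repressor, was at 0.507 and 0.492 FPKM in NC and at 0.404 and 0.441 FPKM in SKA3-KD, below the filter. The groups of GLI3 did not overlap. In that lower-filter voom fit, which admitted genes from a mean of 0.1 FPKM upwards and was added after the data had been seen, its difference was -0.24 (SE 0.27, adjusted p = 0.639). Limma with a mean of at least 0.1 and with no filter gave adjusted p = 0.769 and 0.741.

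Of the 4 members above the filter other than GAS1 (CDON, PTCH1, SUFU and GLI2), 0 passed limma's adjusted threshold, beside 12.3% of all genes tested. By limma, GLI2 alone had an unadjusted p under 0.05, as did 31.3% of all genes. With voom, GLI2 alone passed the adjusted threshold, as did 26.2%. Both GLI2 and PTCH1 had an unadjusted p under 0.05 in that voom fit, as did 4678 of its 12645 genes. In 3 of the 4 the groups did not overlap, 1 above (PTCH1) and 2 below (SUFU and GLI2), beside 61.6% of all genes tested. Their median difference was -0.07, beside 0.01 over all genes. Ordered by mean level in NC, GLI2 came first, then GAS1 and SUFU, whose ranges overlapped, then CDON, PTCH1, GLI3 and BOC, with HHIP and SMO last and not separable. In SKA3-KD, GAS1 came before GLI2, SUFU, CDON, PTCH1 and GLI3, each apart from the next, and BOC, HHIP and SMO could not be separated.

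The other genes of the pathway were followed from a list by role, of which 46 of 48 were in the table (LRP2 and GPC3 were not analysed here) and 31 were tested. Of these, 1 rose (CCND1) and 2 fell (FOXF2 and CCNE1), or 3 of 31 beside 12.3% of all genes tested, and the other 28 did not pass. In 25 of the 31 the groups did not overlap, 15 with SKA3-KD above and 10 below, beside 61.6% of all genes tested (32.3% above and 29.2% below), and the median difference was 0.05. In the voom fit from 0.1 FPKM upwards, 39 of the list were tested, and 8 were higher and 4 lower, beside 8.98% and 8.56% (17.5% in all) of the 20677 genes in that fit.

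The ligands were scarce. SHH had 12 and 6 reads in NC and 21 and 34 reads in SKA3-KD, which is 0.199 and 0.132 FPKM against 0.410 and 0.572 FPKM. Both knockdown libraries held more SHH reads than either control, at a pooled rate ratio of 2.92 (exact 95% interval 1.69 to 5.28, counting error only). SHH lay under the filter, and in the added voom fit its difference was 1.50 (SE 0.46, adjusted p = 0.00922), whereas limma on log2(FPKM + 1) gave adjusted p = 0.234 with a mean of at least 0.1 and 0.207 with no filter. IHH had 1 read in all and DHH had 2.

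Of the genes that make and release the ligands, HHAT, the enzyme that attaches palmitate to Hedgehog proteins, had 9 and 17 reads in NC and 66 and 84 reads in SKA3-KD. In FPKM this was 0.175 and 0.439 against 1.51 and 1.66, and the pooled rate ratio was 5.51 (exact 95% interval 3.62 to 8.71, counting error only). Where the GENCODE length gave no whole reads, as for HHAT, BCL2 and GLI3, the reads are the fewest that keep the proportions of the FPKM values, and true counts could be larger by a common factor. The mean FPKM of 0.945 kept HHAT just outside the filter. In the added voom fit it was higher by 2.55 (SE 0.37, adjusted p = 7.03e-10). That small p-value draws its error mostly from the other genes in the fit, while the NC libraries of HHAT themselves differed (0.175 and 0.439 FPKM). For HHAT, limma with a mean of at least 0.1 gave adjusted p = 0.0551 and with no filter 0.0916. DISP1, which releases the lipid-bearing ligand from the cell, was at 1.67 and 1.70 FPKM in NC and 1.29 and 1.25 FPKM in SKA3-KD, without overlap, but the difference of -0.24 did not pass (adjusted p = 0.272 by limma). SCUBE2, a secreted aid to release, had 7 pooled reads in NC and 4 in SKA3-KD.

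**Figure D2:**
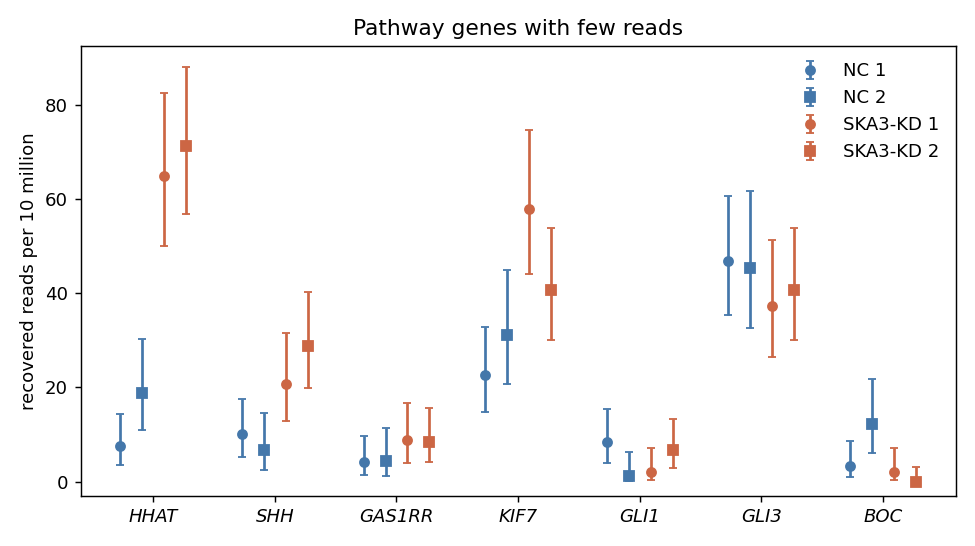
Recovered reads, scaled to one common library size, for pathway genes of few reads and for GAS1RR, by library, with exact 95% Poisson intervals that cover counting error only. HHAT stands at 64.8 and 71.2 with knockdown and at 7.52 and 18.9 in the controls, SHH is also higher in both SKA3-KD libraries, and GLI1 overlaps between the groups.

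GLI1, a transcription factor and itself a target of the pathway, is often read as a sign of pathway output. It had 10 and 1 reads in NC and 2 and 8 reads in SKA3-KD. The groups overlapped, and at this depth only a large difference could have been seen. The exact 95% interval of the pooled rate ratio ran from 0.331 to 2.25 and covers counting error only. Of the glypicans, which bind ligand at the surface, GPC4 had 14 pooled reads in NC and 29 in SKA3-KD, and GPC6 had 0 and 2.

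Among 23 kinases, adaptors, ubiquitin ligase parts and ciliary regulators that act on SMO or the GLI factors, 21 were tested and 0 passed limma's adjusted threshold, beside 12.3% of all genes tested. Their differences ran from -0.23 to 0.31 with a median of 0.05, and their adjusted p-values from 0.0806 to 0.885. The lowest belonged to PRKACA, a catalytic subunit of the kinase PKA that primes GLI proteins for processing, at 14.7 and 15.6 FPKM in NC and 12.8 and 12.7 FPKM in SKA3-KD. BTRC, the F-box protein that recognises phosphorylated GLI, had the largest positive difference (0.31, adjusted p = 0.154), and GPR161, a ciliary receptor that keeps PKA active, differed by -0.17 (adjusted p = 0.386). KIF7, the kinesin at the tip of the cilium, had 27 and 28 reads in NC and 59 and 48 reads in SKA3-KD. KIF7 was under the filter, and its pooled rate ratio was 1.86 (exact 95% interval 1.33 to 2.62, counting error only). It passed in the added voom fit (0.88, adjusted p = 0.0215) but not in limma with a mean of at least 0.1 (adjusted p = 0.271) or with no filter (0.365). Voom at that filter also placed BTRC among the higher and PRKACA among the lower genes.

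Of 14 target genes, 9 were tested. CCND1, which encodes cyclin D1 and answers to many growth signals besides Hedgehog, was at 18.1 and 18.8 FPKM in NC and at 31.4 and 28.5 FPKM in SKA3-KD, without overlap. It rose by 0.66 on the log2 scale (SE 0.07, adjusted p = 0.0136 by limma). CCNE1, which encodes cyclin E1, was at 14.8 and 12.8 FPKM in NC and at 10.2 and 9.44 FPKM in SKA3-KD. It fell by 0.45 (SE 0.09, adjusted p = 0.0407). The 2 cyclins thus moved in opposite directions. With single libraries left out in turn, adjusted p ran from 0.0491 to 0.0769 for CCND1, which passed only without SKA3-KD 2, and from 0.0734 to 0.153 for CCNE1, which then passed in no case.

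Of the 4 forkhead genes of the list, 1 passed by limma, beside 12.3% of all genes tested. All 4 passed in the added voom fit, in both directions, beside 8.98% higher and 8.56% lower (17.5% in all) of its genes. FOXF1, FOXC2 and FOXL1 were named after their values were seen. FOXF2, a transcription factor of the mesenchyme around the gut and palate, was at 60.7 and 62.5 FPKM in NC and at 50.2 and 51.9 FPKM in SKA3-KD, and fell by 0.27 (SE 0.06, adjusted p = 0.044), a call lost whichever single library was left out (adjusted p = 0.118 to 0.208). FOXF1, its paralog, had the same size of difference (-0.27) and did not pass (adjusted p = 0.102), whereas FOXC2 and FOXL1 had positive differences of 0.38 and 0.28 that did not pass either (adjusted p = 0.108 and 0.24). In the voom fit the differences were -0.27 for FOXF2 (adjusted p = 0.00751), -0.28 for FOXF1 (0.0469), 0.43 for FOXC2 (0.00628) and 0.31 for FOXL1 (0.0201). BCL2, an inhibitor of cell death, was under the filter with 24 and 21 reads in NC and 44 and 49 reads in SKA3-KD, and passed in the added voom fit (0.97, adjusted p = 0.0181) but not in limma with a mean of at least 0.1 (0.288) or with no filter (0.263).

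**Figure D3:**
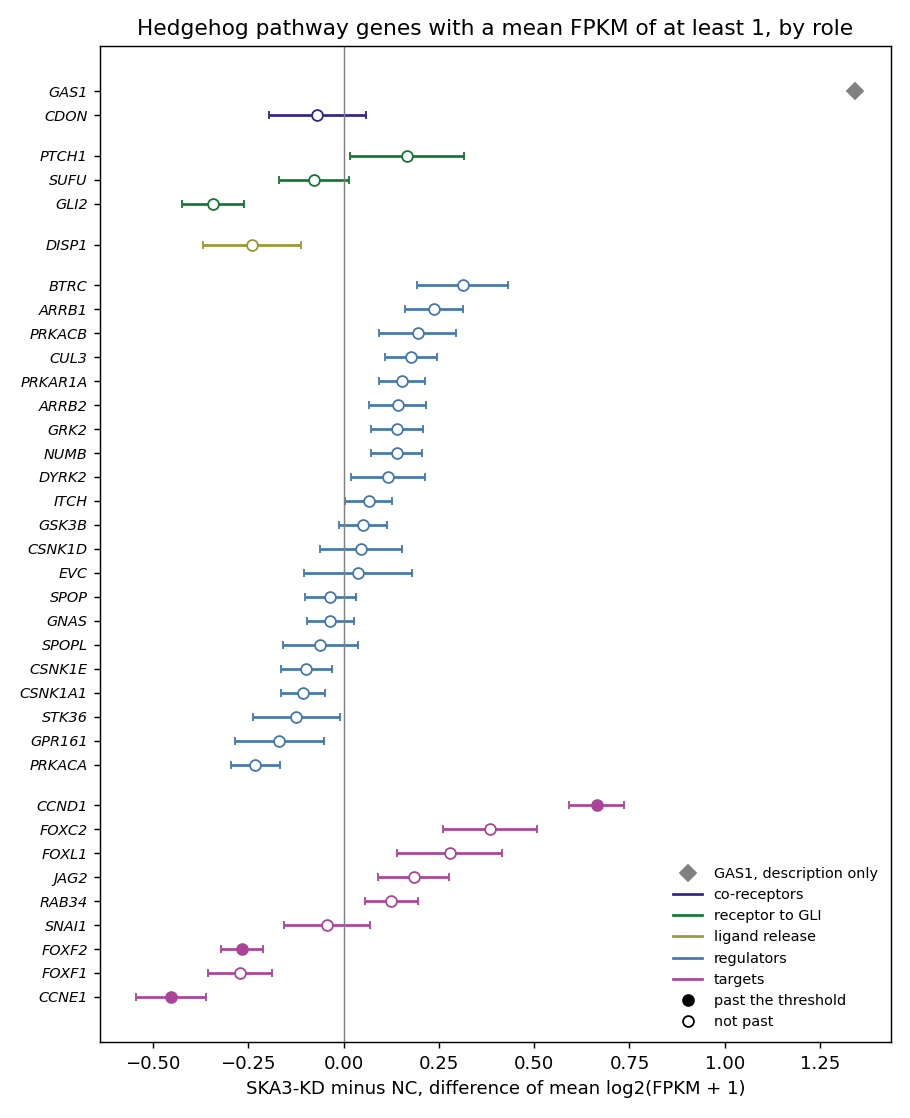
Difference of mean log2(FPKM + 1), SKA3-KD minus NC, for the 36 pathway genes above the filter, ordered by role. Points are fitted differences and bars their SE. Filled points passed the adjusted threshold. The grey diamond, GAS1, stands at 1.34 and is shown as a description because its difference chose the set, and the next is CCND1 at 0.66.

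The primary cilium is the organelle in which vertebrate SMO and GLI proteins are handled, so genes of its transport and gate were listed as well. All 34 were in the table and 30 were tested, at mean levels from 1.38 to 22.6 FPKM. By limma 1 gene passed, beside 12.3% of all genes tested. INPP5E, a ciliary phosphatase that sets the lipid content of its membrane, was at 6.85 and 7.88 FPKM in NC and at 11.9 FPKM in both SKA3-KD libraries, and rose by 0.63 (SE 0.08, adjusted p = 0.019 by limma). That call was lost whichever single library was left out (adjusted p = 0.0612 to 0.0868). Differences of the 30 ran from -0.21 to 0.63, with 22 positive and 8 negative and a median of 0.08, and 17 did not overlap between groups, 14 above and 3 below, beside 61.6% of all genes tested (32.3% above and 29.2% below). IFT88, a part of the train that moves cargo along the cilium, differed by 0.38 (adjusted p = 0.114), and DYNC2LI1, of the motor that brings cargo back, by 0.36 (adjusted p = 0.154). The voom fit from 0.1 FPKM upwards passed 6 of 32, all higher (INPP5E, IFT88, IFT140, DYNC2H1, DYNC2LI1 and CEP164), beside 8.98% higher and 17.5% in all of the genes in that fit.

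**Figure D4:**
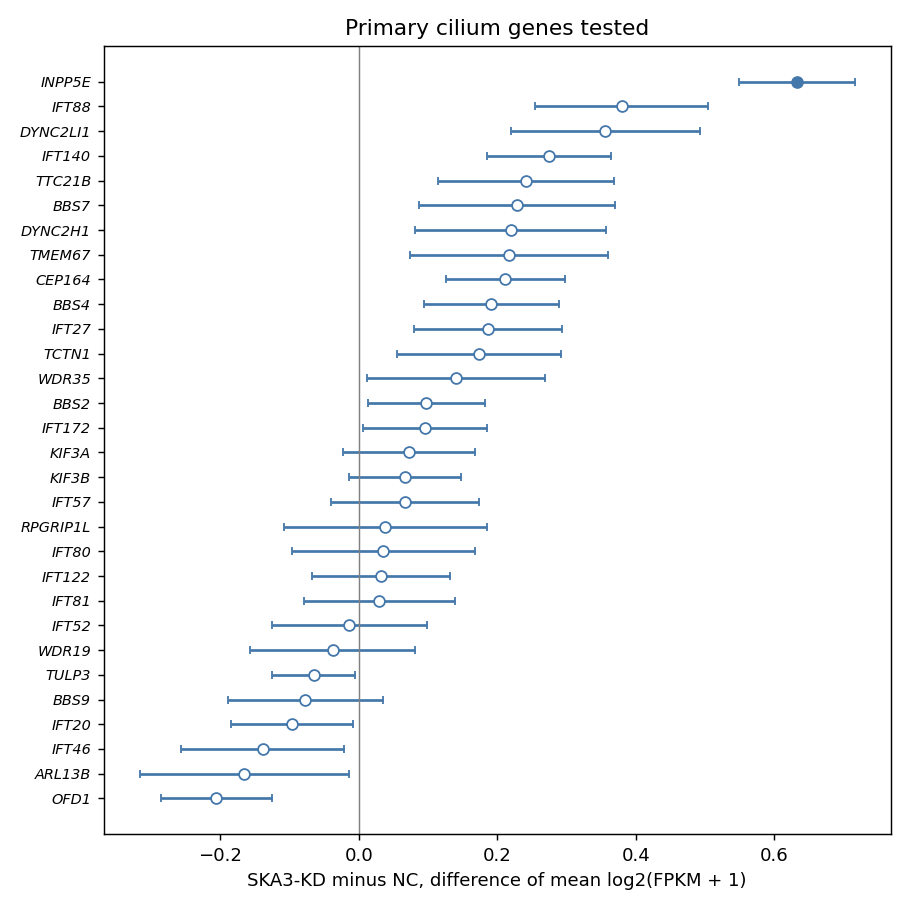
Difference of mean log2(FPKM + 1), SKA3-KD minus NC, for the 30 cilium genes tested. Bars are SE, and the filled point passed the adjusted threshold. INPP5E (0.63) stands apart, and the differences of the others run from -0.21 to 0.38.

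The profiles most like that of GAS1, by the distance between values of log2(FPKM + 1) centred on each gene's mean over the 4 libraries, were SEMA5A, AXL, NTN4, LINC01537 and AFAP1, with distances of 0.115, 0.214, 0.249, 0.252 and 0.258. SEMA5A, which encodes a guidance protein of the semaphorin family, was at 2.08 and 1.76 FPKM in NC and at 6.01 and 5.99 FPKM in SKA3-KD. AXL, a receptor tyrosine kinase, was at 14.8 and 16.7 FPKM in NC and at 43.3 and 44.2 FPKM in SKA3-KD. These genes were picked for being like GAS1, and 4 libraries in 2 groups make any pair of genes with a like difference look alike.

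Genes next to GAS1 in RefSeq order differed among themselves. On one side, TUT7 was at 6.60 and 6.38 FPKM in NC and 6.58 and 6.28 FPKM in SKA3-KD (difference -0.01, adjusted p = 0.924), ISCA1, which acts in iron-sulfur cluster assembly, fell by 0.42 (adjusted p = 0.0493, and 0.067 to 0.17 with single libraries left out in turn), and C9orf153 had 4 to 7 reads a library. On the other side lay GAS1RR, a non-coding gene on the opposite strand whose start is 1192 bases from that of GAS1. GAS1RR had 5 and 4 reads in NC and 9 and 10 reads in SKA3-KD, a pooled rate ratio of 2.02 (exact 95% interval 0.869 to 5.06, counting error only). LINC02893 had 1 read in all, and CDC20P1 had 4 reads in each NC library, against 13 and 15 with knockdown, which are uncertain because this pseudogene resembles CDC20. Whether the counting used strand is not given in the sources used here.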

How the data were processed

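Total RNA of 4 TU-177 libraries (2 NC, 2 SKA3-KD) was sequenced on an Illumina platform, and groups and replicates were taken from the sample titles. The authors deposited FPKM values per gene by Ensembl identifier. The submitters' processing notes name hg19, Bowtie2 2.2.8, HISAT2, StringTie 1.3.1 and Cuffdiff 2.1.1, without role or order. Symbols were found for 27043 of 28729 genes. FPKM steps gave whole reads for 100% of the genes tested, 61.3% at the GENCODE 29 gene length and the others from the proportions between libraries (relative tolerance 1e-05). The recovered reads summed to between 102% and 104% of the library sizes.

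SKA3-KD was compared with NC by limma 3.58.1 (R 4.3.3; lmFit, eBayes with trend) on log2(FPKM + 1), pseudocount 1, mean FPKM of at least 1, Benjamini-Hochberg adjustment over 12645 genes, threshold 0.05. Intervals cover 95%. Alternatives were other pseudocounts, filters, scalings and variance models, a replicate block, leaving out each library, and limma voom on the recovered reads. Voom with a mean FPKM of at least 0.1 was added after seeing the data. The fits share variance across genes, so the p-value of a single gene rests largely on the spread of the others, most of all in that voom fit. On simulated data of 12434 genes with 2-fold changes of SKA3-KD against NC, limma recovered 160 of 196 changed genes with 16 false calls, and voom 192 of 196 with 7. The simulation gave every gene the same spread beyond counting error and changed few genes, all above a read minimum. These settings differ from the data, so the counts do not show which fit is more reliable here.

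The members and lists were chosen with earlier results of these data known. Named were all members, SKA3, list genes past the threshold, ligands, GLI1, GPR161 and KIF7, the 5 profiles nearest GAS1 and 3 neighbours on each side. Other list genes (among them HHAT, DISP1, SCUBE2, PRKACA, BTRC, IFT88, DYNC2LI1, FOXF1, FOXC2, FOXL1, BCL2 and the glypicans) were named after their values were seen, and 1 gene of the rule is not reported here. Python 3.11.15 with numpy 2.4.6, pandas 2.3.3, scipy 1.17.1 and matplotlib 3.10.9 was used for the rest.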

Additional observations from a re-analysis of the deposited data

How the results depend on the processing

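With 2 libraries a group, calls rested on few values. Of all genes tested, 1551 passed, against 3319 with limma voom on recovered reads, 3626 with voom and a mean FPKM of at least 0.1, 741 with limma at that filter, 129 with no filter and 693 without a trend. Left out in turn, single libraries brought this to between 0 and 181: 0 genes passed limma without NC 1 or without NC 2, although 3124 and 3352 had an unadjusted p under 0.05. Leaving out SKA3-KD 1 or SKA3-KD 2 gave 66 and 181. The lone library left in a group was assumed to vary like the other group. SKA3 itself then had adjusted p from 0.0313 to 0.066, losing its call without NC 1 and without NC 2. The count of members past the threshold, 1, is GAS1, which is no test because its difference chose the set. It was 2, with GLI2 added, with voom at either filter and with a mean FPKM of at least 5, and ran from 0 to 1 without single libraries, being 0 without NC 1 and without NC 2. Of the other pathway genes 3 passed, against 12 with voom at a mean of at least 0.1, 8 with voom, 1 with limma at a mean of at least 0.1, 0 with no filter and 1 without a trend, and 0 to 1 without single libraries. Of the cilium genes 1 passed, against 6 and 5 with voom at a mean of at least 0.1 and 1, and 0 with no filter or without any 1 library. Where 0 passed limma with no filter, 12 pathway and 3 cilium genes had an unadjusted p under 0.05. The fits with no filter and with a mean of at least 0.1 tested more genes, and the cause of the other shifts was not tested. The difference of CDON ran from -0.18 (without SKA3-KD 1) to 0.043 (without SKA3-KD 2), where its sign turned. CCND1 passed in 9 of 10 settings with all libraries (highest adjusted p = 0.0548), CCNE1, FOXF2 and GAS5 in 7 and ISCA1 in 6. PTCH1, CDON and SUFU passed in 0 of 9, their adjusted p-values by limma and voom running from 0.0703 to 0.841. With the replicate number as a block, 1967 genes, 1 member, 4 other pathway genes and 1 cilium gene passed. Replicate 1 minus replicate 2 correlated weakly between NC and SKA3-KD across genes (r = 0.0973) and nothing in the labels ties the numbers together, so they were not taken as pairs. Genes of few reads are limited by counting error.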

Other observations

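GAS1 takes its name from growth arrest, and other genes are named in the same way. Of 8 listed, 6 were in the table and all 6 were tested, with 0 higher and 1 lower by limma and a median difference of -0.12. In the added voom fit 1 was higher (GAS2L1) and 2 were lower (GAS5 and GAS7), beside 8.98% higher and 8.56% lower of all its genes. GAS5, a non-coding RNA that hosts small nucleolar RNAs, was at 67.7 and 60.3 FPKM in NC and at 50.2 and 47.3 FPKM in SKA3-KD, and fell by 0.38 (SE 0.08, adjusted p = 0.041 by limma). GAS2L1, which links actin and microtubules, was at 9.33 and 10.9 FPKM in NC and at 12.8 and 14.8 FPKM in SKA3-KD and did not pass by limma (0.41, adjusted p = 0.0738) but did with voom (0.46, adjusted p = 0.00207). GAS6, the ligand of AXL, had a difference of -0.23 (adjusted p = 0.228), and GAS2L3, GAS7 and GAS8 had differences of 0.00, -0.26 and 0.09 that did not pass by limma. GAS7 was lower with voom (-0.46, adjusted p = 0.0291). The 1 of 6 that passed stands beside 12.3% of all genes tested, and with single libraries left out in turn adjusted p for GAS5 ran from 0.0724 to 0.165, past the threshold in no case.

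GAS1 is also related in sequence to the receptors of the GDNF family, which signal through the kinase RET. Of 10 genes of that family, 7 were in the table and 5 were above 0. RET had 4 pooled reads in NC and 1 in SKA3-KD, and GFRA2 and GFRAL were listed at 0 in every library. The ligand NRTN, at 3.39 and 3.40 FPKM in NC and at 3.46 and 2.75 FPKM in SKA3-KD, and the ligand ARTN, at 1.10 and 1.09 FPKM against 0.739 and 1.21 FPKM, were the only ones tested, and neither passed (adjusted p = 0.582 and 0.776 by limma).

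Among the cell type markers, KRT17, a keratin of stressed and basal epithelium, was at 45.6 and 49.1 FPKM in NC and at 29.4 and 35.7 FPKM in SKA3-KD and fell by 0.53 (adjusted p = 0.0396 by limma, and 0.0596 to 0.133 with single libraries left out in turn). DCN, which encodes the matrix protein decorin, was at 8.40 and 8.36 FPKM in NC and at 2.48 and 2.35 FPKM in SKA3-KD and fell by 1.46 (adjusted p = 0.0065 by limma, and 0.0313 to 0.066 with single libraries left out in turn, lost without NC 1 and without NC 2). PDGFRB, on the same fibroblast list, had a difference of the other sign (0.34), which did not pass by limma (adjusted p = 0.165) and did in the added voom fit (0.45, adjusted p = 0.00617). Of 4 genes of the list in that voom fit, 3 were lower (DCN, COL1A1 and COL3A1) and 1 higher, beside 8.56% lower and 8.98% higher of all its genes.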
